A study of Homo sapiens with 6 samples.

Results

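Receptor tyrosine kinases were examined as a family of 51 named genes among the 58735 genes measured in HGC-27 cells, an established line of undifferentiated human gastric carcinoma. The list was matched by gene symbol in the deposited expression table, and IGF1R was not on it. A kinase was called expressed when its mean reached 1 FPKM (fragments per kilobase of gene length, scaled to the size of the library) in either group, and 28 of the 51 did. LTK was 3.17-fold higher by mean FPKM in the cells carrying a hairpin against ACAT2 than in the control cells, and FGFR2 was 1.51-fold higher. These were the 2 kinases that passed the test across all genes.

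Receptor tyrosine kinases span the cell membrane and bind growth factors, matrix proteins or ligands on neighbouring cells with their outer part. Ligand binding brings receptor chains together, the inner kinase domains phosphorylate each other on tyrosines, and adaptor proteins dock there to start the RAS to ERK and PI3K to AKT cascades. In gastric carcinoma the best known members are ERBB2, MET, FGFR2 and EGFR, whose genes are amplified in some tumours and which are drug targets.

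The comparison was between 2 groups of 3 libraries. The shNC cells, labelled WT, carried the vector pSIH-H1-Puro-shNC, and the shACAT2 cells, labelled ACAT2 knockdown, carried pSIH-H1-Puro-shACAT2. In both groups the vector had been applied for 24 h and puromycin selection followed for 7 days, so drug selection was common to all cells. The labels do not say which hairpin was used or whether a single clone or a pool was grown. The series calls the libraries biological replicates without saying that they were separate cultures, so n counts libraries. ACAT2 itself measured 14.2, 11.7 and 12.7 FPKM in the shNC libraries, numbered 1 to 3, against 6.19, 5.46 and 6.05 FPKM in the shACAT2 libraries. The exact permutation test of this difference, two-sided, gave p = 0.1, which is the least possible with 3 against 3 libraries, and no shACAT2 library reached the control range. Values of single libraries follow the order of these numbers throughout.

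Each library held 14086416 to 16067486 fragments assigned to genes. A single library stood apart: shACAT2-3 had at least 1 fragment for 36466 genes against 25337 to 27196 in the other 5, and 7477 of these genes had none elsewhere. None of 8 gastric epithelial markers (EPCAM, CDH1, KRT8, KRT18, KRT19, TFF1, TFF2 and MUC5AC) reached a mean of 1 FPKM in a group, with TFF1 at 0 in all libraries. Of 6 mesenchymal markers 5 did, namely VIM, FN1, COL1A1, COL1A2 and DCN. The other, CDH2 (N-cadherin), was nearly absent, with 0 to 6 fragments in a library. The mesenchymal sum, led by VIM and COL1A1, was 316 to 372 FPKM in shNC and 474 to 620 FPKM in shACAT2. The epithelial sum was 0.512 to 0.987 FPKM and 1.44 to 2.39 FPKM. None of the 3 endothelial, 4 blood and 4 neural markers reached 1 FPKM. The part of these differences in the kinase results was not tested. In bulk RNA, fewer cells with a transcript and less of it per cell cannot be told apart.

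The promoters of the 2 kinases that rose and of PDGFRA, the kinase nearest to the threshold in the other direction, are shown so that they can be set beside the family's base composition. Each runs from 250 bases before to 50 after the first listed RefSeq start on GRCh38.p14, in the gene's own direction. LTK lies at chr15:41513778-41514077 on the minus strand, FGFR2 at chr10:121598395-121598694 on the minus strand and PDGFRA at chr4:54229043-54229342 on the plus strand. Capitals mark a GC box (GGGCGG, or CCGCCC on the other strand) or a TEAD motif (GGAATG, or CATTCC).
LTK: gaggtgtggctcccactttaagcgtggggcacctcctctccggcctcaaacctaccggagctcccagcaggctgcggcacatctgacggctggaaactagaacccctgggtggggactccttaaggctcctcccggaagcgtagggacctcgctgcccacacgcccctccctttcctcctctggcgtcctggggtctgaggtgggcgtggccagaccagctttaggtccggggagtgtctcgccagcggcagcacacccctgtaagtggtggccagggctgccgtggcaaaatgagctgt
FGFR2: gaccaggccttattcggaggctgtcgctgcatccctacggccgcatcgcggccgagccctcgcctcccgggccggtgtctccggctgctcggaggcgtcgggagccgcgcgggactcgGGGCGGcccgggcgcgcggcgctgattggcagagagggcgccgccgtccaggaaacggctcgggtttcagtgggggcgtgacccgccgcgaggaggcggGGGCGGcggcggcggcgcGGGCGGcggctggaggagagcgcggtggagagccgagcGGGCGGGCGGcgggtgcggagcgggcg
PDGFRA: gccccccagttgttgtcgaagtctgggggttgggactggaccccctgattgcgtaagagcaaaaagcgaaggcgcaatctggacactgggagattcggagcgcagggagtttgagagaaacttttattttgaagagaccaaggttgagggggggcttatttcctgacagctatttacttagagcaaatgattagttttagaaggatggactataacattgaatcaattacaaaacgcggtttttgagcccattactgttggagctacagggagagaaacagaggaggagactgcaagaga
The FGFR2 promoter held 5 GC boxes, the last pair overlapping, and was 79.3% G and C. The LTK promoter, at 65% G and C, and the PDGFRA promoter, at 47%, held none, and none of the 3 held the TEAD motif. RefSeq promoters were found for 46 of the 51 kinases, and 34 of these held a GC box (73.9%) against 44.6% of all 27305 promoters. The TEAD motif was in 3 of the 46 (6.52%) against 14.0% of all promoters. The median G and C content was 68.7% for the kinases and 58.3% for all promoters. FGFR2 has 5 listed starts, PDGFRA 2 and LTK 1, and only the first was read. A letter match is a description of the window, not a binding site.

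Which kinases the line expresses was read from the mean over all 6 libraries. At 10 FPKM or more lay 8 kinases, in the order FGFR3, DDR2, PTK7, EPHB4, FGFR4, ERBB2, ROR2 and EPHA2. Another 18 lay between 1 and 10 FPKM, and TYRO3, FGFR2, LTK, DDR1, EPHB3, MET, RYK and AXL led these. Between 0.15 and 1 FPKM lay 6 kinases, namely ERBB4, EPHA4, EPHB6, PDGFRB, ERBB3 and EGFR, of which ERBB4 and EPHA4 passed the filter through shNC. The remaining 19 lay below 0.15 FPKM, among them KIT, FLT3 and CSF1R, the receptors for stem cell factor, FLT3 ligand and CSF1, and FLT1, KDR and FLT4, the VEGF receptors. The 5 highest kinases held 51.4% to 54.8% of the summed kinase FPKM in each library. The sum over all 51 was 243, 231 and 231 FPKM in shNC and 287, 266 and 234 FPKM in shACAT2, so shACAT2-3 lay inside the control range and the groups overlapped.

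**Figure D1:**
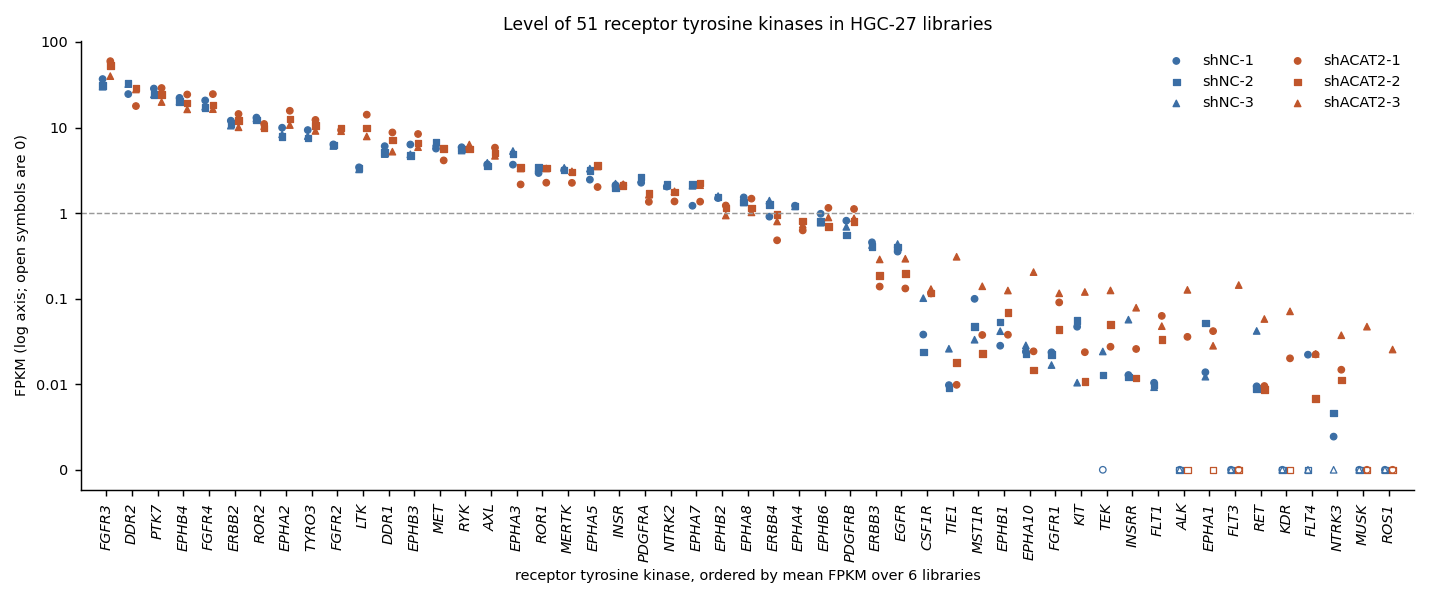
FPKM (log axis) of the 51 kinases in each of 6 libraries, ordered by mean level, with open symbols for 0 and a dashed line at 1 FPKM. Levels ran from 59.6 FPKM for FGFR3 in shACAT2-1 down to kinases listed at 0 in most libraries, and orange triangles (shACAT2-3) stand above the rest at the right end.

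The 2 groups were compared by limma, on log2(FPKM + 1), for 13832 genes, with adjusted p values taken over all of them. On this scale the change of low genes is understated. Of the 28 kinases tested, 14 lay above 0 and 14 below, with a median log2 fold change of −0.033 against 0.016 for all genes tested. LTK and FGFR2 were called higher in shACAT2, 7.14% of the kinases tested, where 3.3% of all genes tested were called higher. None was called lower, where 1.81% of all genes were. At an unadjusted p below 0.05 there were 6 higher and 4 lower kinases, where 12.8% of all genes were higher and 10.7% lower. With limma-voom on the recovered fragments 3 kinases were called higher (FGFR3, LTK and FGFR2) and 3 lower (EPHB2, EPHA4 and PDGFRA), where 4.22% and 4.2% of all genes were. In 5 kinases all shACAT2 libraries lay above all shNC libraries, and in 8 all lay below. These are 17.9% and 28.6% of the kinases tested, against 16.2% and 14.5% of all genes tested. In the other 15 the groups overlapped. These counts include EPHA4, among the lower kinases each time, and ERBB4, among those below 0. Both passed the filter only through shNC, the group in which they are high.

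LTK, the closest relative of ALK and a receptor for the ALKAL cytokines, showed the largest difference. Its level was 3.43, 3.36 and 3.24 FPKM in shNC and 14.1, 9.81 and 7.87 FPKM in shACAT2. The control libraries were nearly level, and every shACAT2 library lay above them, with shACAT2-1 highest and shACAT2-3 lowest. The gene (ENSG00000062524, hg38 chr15:41503638-41513887) rose by 1.38 ± 0.19 on the log2 scale (SE, n = 3 per group, limma adjusted p = 0.0132). These values rest on 183 to 195 fragments in shNC and 412 to 749 in shACAT2. ALK, the other member of its family, had 0 fragments in every control library and 4, 0 and 14 in shACAT2-1 to shACAT2-3. A count of 0 allows up to 3 fragments in a library, counting error only.

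The 4 FGF receptors, which bind fibroblast growth factors together with heparan sulphate, held 53.6 to 63.9 FPKM in sum in shNC and 65.4 to 93.6 FPKM in shACAT2. FGFR2 measured 6.35, 6.23 and 6.09 FPKM in shNC and 9.33, 9.81 and 9.06 FPKM in shACAT2. The 2 groups lay far apart relative to their spread, with means of 6.22 ± 0.131 and 9.40 ± 0.383 FPKM (SD, n = 3). The gene (ENSG00000066468, hg38 chr10:121478334-121598458) rose by 0.53 ± 0.08 on the log2 scale (SE, limma adjusted p = 0.0198). Over all genes shNC-2 and shNC-3 differed much less from each other than any other pair within a group, which limits what the control spread shows.
FGFR3, the highest kinase of the line, measured 36.8, 31.0 and 30.0 FPKM in shNC and 59.6, 52.7 and 39.9 FPKM in shACAT2. The groups did not overlap, but shACAT2-3 lay only a little above shNC-1. Its log2 difference of 0.61 ± 0.17 (SE) did not pass, with a limma adjusted p of 0.0926. It was called higher with the replicate block (limma adjusted p = 0.0316) and by limma-voom (adjusted p = 0.0367). FGFR4, the receptor for FGF19, measured 20.7, 17.1 and 17.5 FPKM in shNC and 24.6, 18.3 and 16.4 FPKM in shACAT2, and the groups overlapped (log2 difference 0.08, limma adjusted p = 0.819). FGFR1, the member most used by mesenchymal cells, was nearly silent, with 4 to 5 fragments in the control libraries and 19, 10 and 24 in shACAT2-1 to shACAT2-3.

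**Figure D2:**
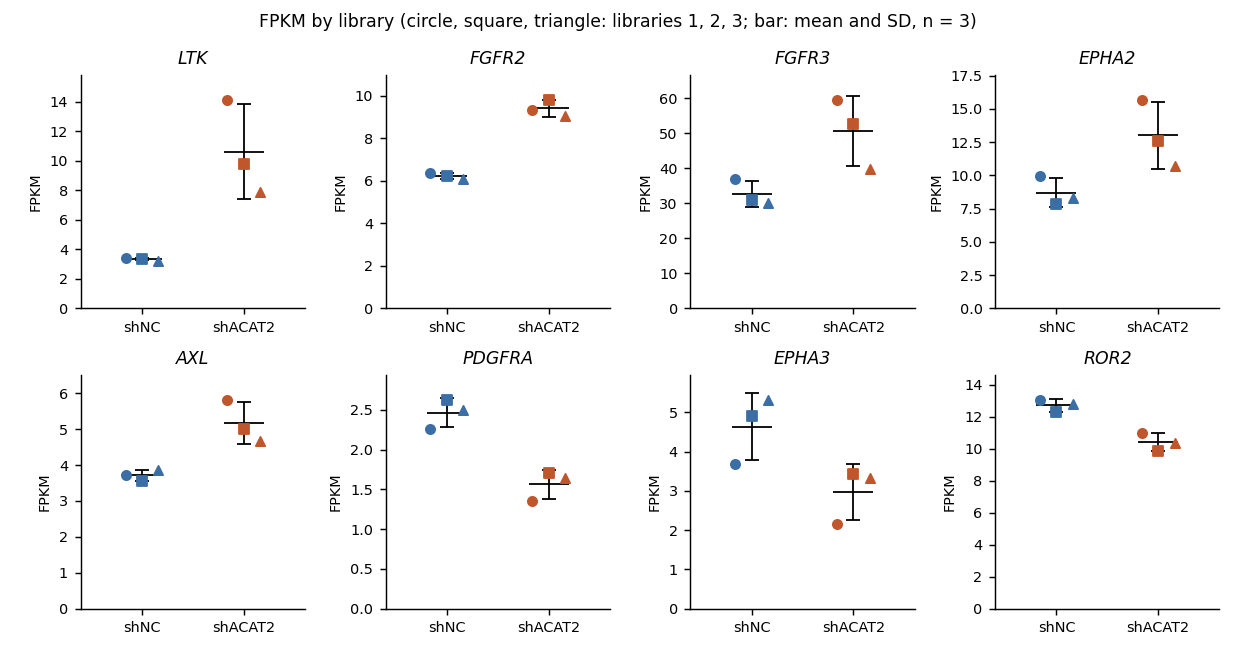
FPKM of 8 kinases in the 3 shNC and 3 shACAT2 libraries, with the mean and SD (n = 3) of each group. In all 8 panels the groups do not overlap, shACAT2 being above shNC for LTK, FGFR2, FGFR3, EPHA2 and AXL and below it for PDGFRA, EPHA3 and ROR2.

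The Eph receptors bind ephrins on neighbouring cells and act in cell sorting and repulsion. Of the 13 on the list 9 were tested, 4 above 0 and 5 below, and none passed in the fit without a block (lowest limma adjusted p = 0.107, for EPHA2). With the replicate number as a block EPHA2 (adjusted p = 0.0347) and EPHB3 (0.0467) were called higher by limma and EPHA3 (0.0263) lower. EPHB4, the receptor for ephrin-B2, measured 22.2, 20.1 and 20.1 FPKM in shNC and 24.3, 19.2 and 16.3 FPKM in shACAT2, where shACAT2-1 was the highest and shACAT2-3 the lowest of all 6 libraries. EPHA2 measured 9.95, 7.85 and 8.33 FPKM in shNC and 15.7, 12.6 and 10.7 FPKM in shACAT2, and the groups did not overlap. Its log2 difference was 0.52 ± 0.16 (SE). EPHA3 lay the other way, at 3.68 to 5.32 FPKM in shNC and 2.16 to 3.43 FPKM in shACAT2, with a log2 difference of −0.51 ± 0.17 (limma adjusted p = 0.140). EPHA4 (1.198 to 1.22 against 0.628 to 0.804 FPKM) and EPHB2 (1.498 to 1.58 against 0.937 to 1.23 FPKM) were lower in every shACAT2 library without passing in this fit (limma adjusted p = 0.148 and 0.216). By limma-voom both were called lower, with log2 differences of −0.81 for EPHA4 (adjusted p = 0.0255) and −0.54 for EPHB2 (adjusted p = 0.0396). EPHA4 passed the filter on level used in these fits only through shNC, the group in which it is high. With no filter its limma adjusted p was 0.326. EPHA4 was also called when limma was run on genes with 10 or more fragments in each library (adjusted p = 0.0262). The summed FPKM of the 8 EphA genes was 20.1 to 21.6 in shNC and 21.6 to 23.9 in shACAT2, the difference of EPHA2 and that of EPHA3 having opposite signs.

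The TAM receptors TYRO3, AXL and MERTK bind GAS6 or protein S and take part in clearing dying cells. TYRO3 measured 9.34, 7.56 and 7.95 FPKM in shNC and 12.3, 10.5 and 9.13 FPKM in shACAT2, so shACAT2-3 lay inside the control range (log2 difference 0.32 ± 0.13, limma adjusted p = 0.200). AXL was above the controls in every shACAT2 library, at 4.67 to 5.81 against 3.57 to 3.87 FPKM (0.38 ± 0.10, limma adjusted p = 0.0772). MERTK lay below them, at a ratio of group means of 0.855 (limma adjusted p = 0.402), and its log2 difference turned to 0.019 under upper-quartile scaling.

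Among the ERBB receptors only ERBB2, the ligandless partner of the family, was well expressed. It measured 12.0, 11.2 and 10.5 FPKM in shNC and 14.4, 12.1 and 10.1 FPKM in shACAT2, with overlapping groups (log2 difference 0.10 ± 0.14, limma adjusted p = 0.719). Of its exon bases, 5.53% are shared with MIEN1 on the opposite strand, and the strand setting of the counting is not given in the sources used here. EGFR, the receptor for EGF, and ERBB3, a receptor for neuregulins, lay under the filter. EGFR had 68, 82 and 94 fragments in shNC and 25, 41 and 55 in shACAT2, a ratio of group mean FPKM of 0.520. ERBB3 had 63, 60 and 66 fragments and then 19, 28 and 39, a ratio of 0.475. In both genes every shACAT2 library lay below every control. In a limma-voom fit limited to genes that had 10 or more fragments in each library, a setting added after the data were seen, ERBB3 was called lower (log2 difference −1.19, adjusted p = 0.0380) and EGFR was not (−1.07, adjusted p = 0.0632). This fit called 3 kinases higher and 4 lower, where 4.27% and 4.52% of all genes were. With limma on log2(FPKM + 1) and that filter the adjusted p values were 0.0533 and 0.0913.

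Receptors for collagen and for Wnt ligands were among the most abundant. DDR2, a receptor for fibrillar collagen, measured 24.6, 33.1 and 32.2 FPKM in shNC and 17.8, 28.95 and 27.8 FPKM in shACAT2, with the first library of each group far below the others (log2 difference −0.28 ± 0.21, limma adjusted p = 0.476). DDR1, its epithelial relative, had a log2 difference of 0.32 (limma adjusted p = 0.313). PTK7, a co-receptor of Wnt signalling without kinase activity, measured 28.5, 24.4 and 24.4 FPKM in shNC and 28.95, 24.2 and 19.9 FPKM in shACAT2, and the groups overlapped (limma adjusted p = 0.773). ROR2, a receptor for WNT5A, measured 13.1, 12.3 and 12.8 FPKM in shNC and 11, 9.88 and 10.4 FPKM in shACAT2. Every shACAT2 library of ROR2 lay below the controls, but the log2 difference of −0.27 ± 0.09 did not pass (limma adjusted p = 0.134).

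PDGFRA, the receptor for PDGF-AA and PDGF-CC, came closest to the threshold among the lower kinases. It lay at 2.26 to 2.62 FPKM in shNC and 1.35 to 1.70 FPKM in shACAT2, with no overlap (log2 difference −0.43 ± 0.11, limma adjusted p = 0.0701). PDGFRA was called lower by limma-voom, with a log2 difference of −0.71 (adjusted p = 0.0322), and by limma on genes with 10 or more fragments in each library (adjusted p = 0.0376). That fragment filter gave 2 kinases higher and 2 lower, where 4.21% and 2.97% of all genes were called. Of its exon bases 15.8% are shared with AC058822.1, a gene on the same strand listed at 0 in all libraries. MET, the receptor for HGF, lay at 5.67 to 6.82 FPKM in shNC and 4.13 to 5.66 FPKM in shACAT2 (−0.27 ± 0.13, limma adjusted p = 0.276), and NTRK2, the receptor for BDNF, was also lower in every shACAT2 library (−0.23, limma adjusted p = 0.269). For RYK, INSR, EPHA5 and EPHA7 the log2 difference was at most 0.05, and the groups overlapped.

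**Figure D3:**
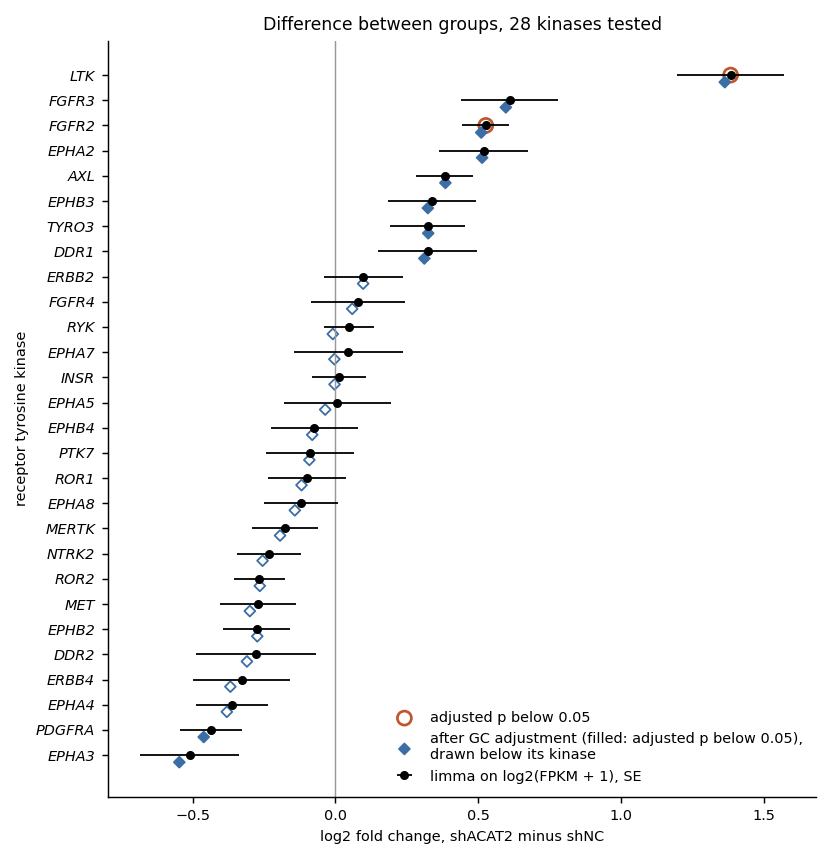
Log2 fold change (shACAT2 minus shNC, on log2(FPKM + 1)) with SE for the 28 kinases tested, circled where the limma adjusted p was below 0.05. Diamonds give the value after GC adjustment and are filled where that fit called the kinase: LTK and FGFR2 are circled, 10 diamonds are filled.

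A fit with the replicate number as a block was also made. Deviations from the group means correlated at 0.445 between the libraries numbered 1, but only at 0.126 and 0.171 for numbers 2 and 3. Differently numbered libraries did as much, at 0.198 for shNC-2 with shACAT2-3 and 0.141 for shNC-3 with shACAT2-2. What a shared number stands for is not known, so calls that need the block rest on an assumed pairing. With the block FGFR3 (adjusted p = 0.0316), LTK (0.0201) and FGFR2 (0.0211) joined EPHA2 and EPHB3 as called higher by limma, and PDGFRA (0.0431) joined EPHA3 as called lower. That is 5 kinases higher where 7.67% of all genes were called higher, and 2 lower where 4.81% were. The log2 differences are the same with and without the block, and the calls change with the error.

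The deviations followed base composition. Across the 28 kinases, whose transcripts run from 36.8% G and C (RYK) to 63.8% (EPHA8), the deviation of a library from its group mean had a Pearson r with G and C content of 0.916 in shACAT2-1, −0.908 in shACAT2-3 and −0.731 in shACAT2-2. In shNC-1, shNC-2 and shNC-3 it was 0.807, −0.763 and −0.750. Within a group the deviations of a kinase cancel by construction, so the r values of its libraries are not independent of each other. The 28 points of a library share that library, and no test was attached. GC-rich kinases such as LTK, FGFR3, FGFR4, EPHB4, DDR1 and EPHB3 were highest in shACAT2-1 and lowest in shACAT2-3 within their group, while AT-rich kinases such as DDR2, MET, EPHA3 and EPHA7 were lowest in shACAT2-1. The log2 fold changes had a Pearson r of 0.537 with G and C content. When the trend with G and C content was removed from each library before the fit, an alternative chosen after seeing the data, limma called 8 kinases higher (LTK, FGFR2, FGFR3, EPHA2, AXL, TYRO3, DDR1 and EPHB3) where 9.25% of all genes were called higher. It called 2 lower (EPHA3 and PDGFRA) where 7.26% were. The differences themselves hardly moved, to 1.36 for LTK, 0.51 for FGFR2, 0.60 for FGFR3 and −0.46 for PDGFRA. With the block added to this adjustment MET, DDR2 and ROR2 were called lower too, making 8 kinases higher and 5 lower where 11.2% and 9.3% of all genes were called.

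The calls of LTK and FGFR2 changed with the libraries used. When any single shNC library or shACAT2-2 was left out neither passed, in fits that called 0.454% to 0.97% of all genes. Without shACAT2-1 both passed (6.19% of all genes called), and without shACAT2-3 both passed and FGFR3 joined them (5.10% of all genes called, limma adjusted p = 0.0367 for FGFR3). Over these 6 fits the log2 difference was 1.17 to 1.56 for LTK, with adjusted p from 0.00749 to 0.0798, and 0.50 to 0.55 for FGFR2, with adjusted p from 0.0263 to 0.131.

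The 23 kinases under the filter included EPHB6, which lacks kinase activity, and PDGFRB, the receptor for PDGF-BB, each with 62 to 121 fragments per library and overlapping groups. For the 19 kinases below 0.15 FPKM no library held more than 31 fragments. ALK, FLT3, KDR, MUSK and ROS1, 5 kinases in all, had none in any control library, and FLT3, MUSK and ROS1 had fragments only in shACAT2-3. Of the 23, 17 were highest in shACAT2-3, the library in which all 51 kinases had at least 1 fragment against 44 to 48 in the others. The share of all genes under the filter that were highest there was not counted. The part of that library's many sparsely covered genes in these counts was not tested, and no fold change is given for the 19.

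Lists of genes that work with the receptors were counted in the same limma fit. Of 67 ligands and co-receptors 29 were tested, with a median log2 fold change of 0.18, and 4 were called higher and none lower, where 3.3% and 1.81% of all genes were. At an unadjusted p below 0.05 there were 11, where 23.5% of all genes were, and limma-voom called 2 lower, where 4.2% were. The 11 include FGF9 and PDGFB, which passed the filter on level only through shNC, the group in which they are high. FGF18, a ligand of FGFR3, lay at 0.204 to 0.362 FPKM in shNC and 1.61 to 2.26 FPKM in shACAT2 (log2 difference 1.16 ± 0.15, limma adjusted p = 0.0107). FGF18 passed the filter on level only through shACAT2, the group in which it is high, and with no filter its limma adjusted p was 0.0353. WNT5A, a ligand of ROR2, lay at 8.56 to 9.43 and 13.5 to 16.1 FPKM (0.70 ± 0.10, limma adjusted p = 0.0164). CSF1 lay at 3.79 to 4.81 and 6.09 to 8.32 FPKM (0.66 ± 0.13, limma adjusted p = 0.0392), while its receptor CSF1R had no more than 10 fragments in a library. PDGFC, a ligand of PDGFRA, lay at 8.95 to 9.76 and 13.1 to 14.1 FPKM (0.52 ± 0.09, limma adjusted p = 0.0246). The groups did not overlap for any of the 4, and none of them was compared with its receptor by a test.

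Of 43 adaptors and relay proteins 36 were tested, and limma called none (lowest adjusted p = 0.0548). At an unadjusted p below 0.05 there were 8, where 23.5% of all genes were, and limma-voom called 3 lower, where 4.2% were. The lowest adjusted p was that of PIK3CD. Among the 8, PIK3CD and SRC passed the filter on level only through shNC and DOK7 only through shACAT2. In each case that is the group in which the gene is high. Of 29 brakes on receptor signalling 21 were tested and 2 were called, both lower, where 1.81% of all genes were called lower. LRIG1, which promotes the breakdown of ERBB receptors, lay at 6.28 to 7.53 FPKM in shNC and 3.54 to 3.70 FPKM in shACAT2 (−0.73 ± 0.10, limma adjusted p = 0.0118). DOK1, an adaptor that dampens RAS signalling, lay at 5.50 to 6.14 and 2.51 to 3.89 FPKM (−0.68 ± 0.14, limma adjusted p = 0.0427). Over all 21 brakes tested 10 lay above 0 and 11 below, with a median log2 difference of −0.020. At an unadjusted p below 0.05 there were 5, where 23.5% of all genes were. Besides LRIG1 and DOK1 these were SPRED1, UBASH3B and LRIG3, all higher in shACAT2. UBASH3B passed the filter on level only through shACAT2, the group in which it is high. Of 11 genes switched on by ERK signalling, 4 of which are also on the list of brakes, 5 were tested, all above 0. The median log2 difference of all genes tested was 0.016. SPRY2 lay at 0.05, EGR1 at 0.13, CCND1 at 0.18 and ETV5 at 0.53, and none of these was called (lowest limma adjusted p = 0.0882, for ETV5). ETV5 passed the filter on level only through shACAT2, the group in which it is high, so the filter favoured its sign. PHLDA1, SPRY4, DUSP4, DUSP6, ETV4 and FOSL1 lay under the filter. IER3 was called higher, where 3.3% of all genes were, at 4.53 to 5.19 FPKM in shNC and 9.01 to 15.5 FPKM in shACAT2 (1.07 ± 0.19, limma adjusted p = 0.0286).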

How the data were processed

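Total RNA of HGC-27 cells was sequenced as 3 shNC and 3 shACAT2 libraries. The authors deposited 1 table of FPKM values for 58735 genes. The submitters' processing notes name HISAT2 2.0.5, featureCounts 1.5.0-p3, DESeq2 1.20.0 and hg38. The listed lengths of all genes match their total exon length in GENCODE 29. Fragments were recovered from FPKM and length, 100% of them whole within 0.05. The fragment total that the FPKM values imply was 15182806 in shACAT2-1, below its 15867286 fragments on genes. In every other library it lay above them, so the deposited values were not scaled by fragments on genes alone.

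Genes whose mean reached 1 FPKM in shNC or in shACAT2 were tested with limma 3.58.1 (trend, R 4.3.3) on log2(FPKM + 1), with Benjamini-Hochberg adjustment over all genes tested. The script was tested on simulated data. Python 3.11.15 with pandas 2.3.3 did the rest. G and C content was that of the longest GENCODE 29 transcript, and its trend was removed by lowess (span 0.3).

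Deviations of same-numbered libraries correlated at 0.445, 0.126 and 0.171 for numbers 1, 2 and 3, each over 0.1, while shNC-2 with shACAT2-3 and shNC-3 with shACAT2-2 gave 0.198 and 0.141. The main fit has no block, and the fit with the number as a block is given where it changes a call. The libraries shNC-2 and shNC-3 differed by a chi-square per gene of 1.73, against 12.1 to 46.0 for other pairs, above sampling noise, and were kept as 2.

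The kinases, the other gene lists and the tests were chosen with earlier results of these data known. Kinases called and the 10 highest were described per library, the others by range and count. Of the other lists the called genes are named. Alternatives were scaling, pseudocount, filters, limma-voom, the block and each library left out. Those chosen after seeing the data were the GC adjustment, averaging shNC-2 with shNC-3, upper quartiles over genes tested and limma-voom on genes with 10 fragments in every library.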

Additional observations from a re-analysis of the deposited data

Results flagged for a closer look

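Under the expression filter, 6 kinases had more fragments in shACAT2-3 than the highest control library allows by counting error (95% Poisson intervals that do not overlap). The share of all genes that would be flagged this way was not counted. This library had at least 1 fragment for 36466 genes against 25337 to 27196 in the others. The shACAT2 libraries also differed from each other beyond counting error, with a chi-square per gene of 14.7 to 46.0. TIE1, an endothelial receptor, had 31 fragments in shACAT2-3 against 1 to 3 in the controls. EPHA10, an Eph receptor without kinase activity, had 25 against 3 to 4. FGFR1 had 24 against 4 to 5, and also 19 in shACAT2-1. ALK had 14 against 0 in each control library, NTRK3, the receptor for neurotrophin-3, had 15 against 0 to 2, and FLT3 had 9 against 0. The endothelial marker sum was 0.0116 to 0.373 FPKM in shACAT2 and 0.00558 to 0.0237 FPKM in shNC, with all 3 markers below a mean of 1 FPKM. The cause was not tested.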

How the results depend on the processing

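The 2 kinases called higher became 1 under upper-quartile scaling and under the limit of an unadjusted p below 0.05 with a log2 fold change above 1 (LTK both times), 0 without a filter (adjusted p of 0.05001 for LTK and 0.0522 for FGFR2) and 0 when shNC-2 was averaged with shNC-3, 5 with the replicate block, and 8 after GC adjustment with or without the block. Lower kinases numbered 2 with at least 10 fragments in every library, 3 by limma-voom, 2 with the block, 2 after GC adjustment, 5 after GC adjustment with the block and 4 by limma-voom with the fragment filter. Leaving out 1 library gave 0 to 3 higher and 0 lower. At 5 FPKM 16 kinases counted as expressed. Upper-quartile scaling over all genes above 0, where shACAT2-3 stood at 3.06 against 5.57 to 6.39 FPKM, moved the median of all genes to 0.22. The kinases' median was then 0.18, so relative to all genes it stayed below 0. It was −0.078 under library-size scaling, 0.022 without a filter, −0.094 by limma-voom with either filter and −0.082 under upper quartiles of genes tested, where the median of all genes was −0.029, 0.029, −0.035, −0.040 and −0.033 in that order.

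The counts of the other lists stand beside the shares of all genes called that are given above. Those ran from 0.454% without shNC-3 to 20.5% after GC adjustment with the block. Under library-size scaling the share was 6.17%, and under upper quartiles of genes tested it was 5.79%. It was 0.581% under upper-quartile scaling, 0.508% without a filter and 0.5998% with the controls averaged. A fall in the count of a list under those settings cannot be told apart from this general loss of calls. Ligands called higher were 4, and 0 under upper-quartile scaling, 2 without a filter, 9 after GC adjustment with or without the block, 0 with the controls averaged and 0 to 5 leaving out 1 library. Ligands called lower were 0, and 1 under library-size scaling, 2 with the fragment filter, 2 by limma-voom, 1 with the block, 2 after GC adjustment with or without it, 1 under upper quartiles of genes tested, 3 by limma-voom with the fragment filter and 0 to 1 leaving out 1 library. Adaptors called higher were 0, and 2 after GC adjustment, 1 with the block added and 1 by limma-voom with the fragment filter. Adaptors called lower were 0, and 1 under library-size scaling, 2 with the fragment filter, 3 by limma-voom with either filter, 2 with the block and 2 after GC adjustment with or without it. Brakes called higher were 0, and 1 after GC adjustment with or without the block and 0 to 1 leaving out 1 library. Brakes called lower were 2, and 0 under upper-quartile scaling, 1 without a filter, 0 with the controls averaged and 0 to 2 leaving out 1 library. ERK output genes called higher were 1, and 0 under upper-quartile scaling, 0 without a filter, 2 with the fragment filter, 2 by limma-voom with either filter, 2 after GC adjustment, 0 with the controls averaged and 0 to 1 leaving out 1 library.

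Kinases whose sign turned had small differences. Under upper-quartile scaling PTK7 was 0.13, EPHB4 0.15, ROR1 0.098, MERTK 0.019 and EPHA8 0.015. After GC adjustment, with or without the block, RYK was −0.0094, EPHA5 −0.036, INSR −0.0033 and EPHA7 −0.0039. Under upper quartiles of genes tested RYK was −0.0013, EPHA5 −0.034 and INSR −0.027. EPHA5 was −0.031 under library-size scaling and −0.058 by limma-voom with either filter, and INSR −0.024 and −0.036. Leaving out 1 library gave −0.22 to 0.043 for PTK7, −0.22 to 0.056 for EPHB4, −0.083 to 0.20 for FGFR4, −0.021 to 0.22 for ERBB2, −0.00011 to 0.075 for RYK, −0.17 to 0.038 for ROR1, −0.10 to 0.21 for EPHA5, −0.017 to 0.037 for INSR and −0.12 to 0.19 for EPHA7. The cause was not tested. The low counts of the 19 kinases below 0.15 FPKM limit what can be said of them.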
